A study of Mus musculus with 4 samples.

Results

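The nuclear genes for the respiratory chain and ATP synthase were described in mouse pancreatic islets held at low or high glucose. The members were the RefSeq coding transcripts named as subunits or assembly factors of complex I (*Nduf* genes), complex II (*Sdha* to *Sdhd*), complex III (*Uqcr* genes), complex IV (*Cox4* to *Cox8* genes) and ATP synthase (*Atp5* genes). They were chosen by name alone, and of several transcripts of a gene the most abundant one was kept. This gave 92 genes of the 28047 distinct entries in the table, with 45 in complex I, 4 in complex II, 8 in complex III, 18 in complex IV and 17 in ATP synthase. The genes of the chain that lie on mitochondrial DNA were not among them, nor were nuclear subunit genes under other names. The names also took in 9 genes that build or accompany a complex and are not stable subunits, namely 7 *Ndufaf* assembly factors, *Atp5s* and *Atp5sl*.

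The islets came from pooled male C57bl6 mice of 3 months of age, and they were cultured overnight with 11 mM glucose before a fast of 2 h at 2.8 mM. By the design text, islets then spent 12 h at 2.8 mM or at 16.8 mM glucose, while the labels of the 2.8 mM libraries give 2 h, and this conflict was not resolved. There were 2 libraries per concentration, each from total RNA of 100 islets. The islets were whole, so endocrine, exocrine and vascular cells were measured together, and fewer cells of a type and less RNA per cell cannot be told apart.

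In textbook terms, complex I (NADH dehydrogenase) and complex II (succinate dehydrogenase) pass electrons to coenzyme Q, complex III hands them to cytochrome c, and complex IV (cytochrome c oxidase) passes them to oxygen. Complexes I, III and IV pump protons out of the mitochondrial matrix, and ATP synthase makes ATP as protons flow back. In the beta cell, ATP made from glucose closes potassium channels in the plasma membrane, and the depolarisation that follows triggers insulin release.

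Values were deposited as RPKM (reads scaled to transcript length and library depth), and the length used by the authors matched the genomic span of a transcript with its introns. Fold changes were fitted with limma on log2(RPKM + 0.5), a scale that understates the change of low genes, over the 7867 transcripts that averaged 1 RPKM or more, and a gene was called at a Benjamini-Hochberg adjusted p under 0.05. By the authors' account the control islets were taken from the same pool as the stimulated ones, and nothing states separate cultures within a group. The p-values therefore measure the spread between libraries, which may be technical, and not that between animals. Fits with a library left out assume that a lone library varies like the other group. Their adjusted p can fall below that of the full fit, so a call that holds there is no separate support. Library depths of between 50760000 and 60650000 reads were recovered from the table. All 5 called genes among 6 beta cell markers rose at 16.8 mM, and *Ins1* and *Ins2* took 2.29% and 2.05% of reads at 2.8 mM against 4.42% and 4.10% at 16.8 mM. The 6 acinar markers had limma adjusted p between 0.081 and 0.16, and their summed RPKM ranged from 68.6 to 195 at 2.8 mM and from 165 to 356 at 16.8 mM, and it was higher in replicate 2 of each group. The part of these shifts in the results on the members was not tested. *Txnip* and *Pklr*, named as glucose-responsive genes, moved in opposite directions. *Txnip* rose (log2 fold change 1.93) and *Pklr* fell by 0.42 on the log2 scale.

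Of the 92 members, 80 reached the minimum of 1 RPKM and were tested. At 16.8 mM 9 of them were called higher and 5 lower, together 17.5% of those tested, beside 33.4% of all transcripts tested. Calls in the higher direction made up 11.2% of the members against 10.7% of all transcripts, and in the lower direction 6.25% against 22.8%. The risers included *Ndufc2*, *Ndufa4l2*, *Ndufa4*, *Ndufa1*, *Ndufa3*, *Uqcrh*, *Uqcr11* and *Atp5g3*. Of these, *Ndufa4l2* reached the minimum only through its 16.8 mM libraries. The genes that fell were *Cox6a2*, *Cox7a2l*, *Ndufaf4*, *Ndufs7* and *Atp5sl*. Among the 80, both 16.8 mM libraries lay above both 2.8 mM libraries in 29 members, where the share of all transcripts was 22.2%, and below them in 17 members, where it was 48.3%. A fold change above 0 was measured for 51 of the 80, beside 34.8% of all transcripts.

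The median log2 fold change of the 80 members was 0.08, against -0.11 for all transcripts tested, a difference of 0.19. The count of members past the threshold changed with the scaling of the libraries. With each library centred on its median 29 members were called higher and 9 lower, against 21.1% and 26.7% of all transcripts, and with quantile normalization 27 were called higher and 10 lower, against 20% and 27.4%. All 14 calls made on the deposited values were kept under both. The median of the members moved to 0.17 with centring and to 0.13 with quantile normalization, where all transcripts had -0.03 and -0.04. It also changed with single libraries. Calls higher and lower numbered 12 and 2 without replicate 1 at 2.8 mM, 4 and 6 without replicate 2 at 2.8 mM, 4 and 5 without replicate 1 at 16.8 mM and 3 and 1 without replicate 2 at 16.8 mM. Without replicate 2 at 2.8 mM the median of the members was -0.012 and all transcripts had -0.16. Replicate 1 at 2.8 mM was above replicate 2 in 78 of the 80 members, with a median ratio of 1.14, and at 16.8 mM in 67 of 80 with a median ratio of 1.04. Over all transcripts tested replicate 1 was the higher one in 84.5% at 2.8 mM, with a median ratio of 1.08, and in 85.6% at 16.8 mM, also with a median ratio of 1.08.

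**Figure D1:**
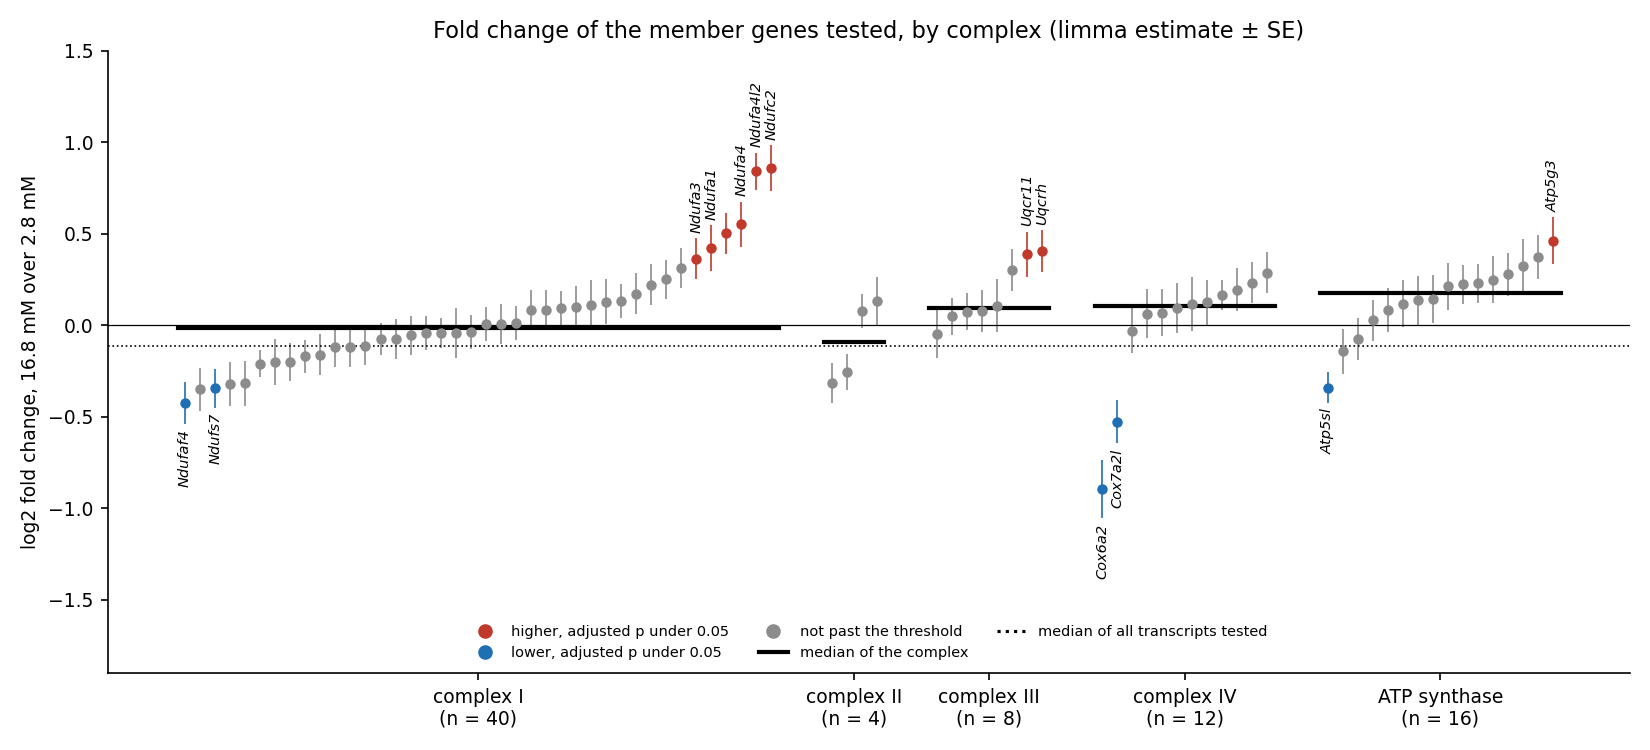
Log2 fold change (16.8 mM over 2.8 mM, vertical axis) of each of the 80 members tested, with points for the limma estimate and bars for its standard error, sorted within complex. Red and blue points passed the adjusted threshold, thick lines are the medians of the complexes (-0.01 for complex I, -0.09 for complex II, 0.09 for complex III, 0.11 for complex IV and 0.18 for ATP synthase), and the dotted line is the median of all transcripts tested (-0.11).

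Levels between genes were set side by side per exon kilobase, by replacing the span with the exon length of the gene's coding transcripts, and these remain estimates where a gene has several transcripts. Over the subunit genes tested the median was 38.9 for complex I, 49.7 for complex II, 65.0 for complex III, 90.5 for complex IV and 75.3 for ATP synthase. *Atp5b*, the catalytic beta subunit of ATP synthase, was highest, at 194 ± 14.2 (SD, n = 2) at 2.8 mM and 215 ± 1.25 at 16.8 mM. *Cox8a*, a small subunit of complex IV, followed at 168 ± 17.8 and 180 ± 9.76, and at 2.8 mM its libraries (181 and 156) did not overlap those of *Atp5b* (205 and 184). *Uqcrh*, *Atp5l*, *Cox6a1*, *Atp5a1*, *Atp5e* and *Cox4i1* came next, with means over the 4 libraries between 137 and 154, and at 2.8 mM their library values overlapped. *Sdhc*, a membrane anchor of complex II, was the lowest of the core subunits named, with 16.8 ± 1.63 at 2.8 mM.

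**Figure D2:**
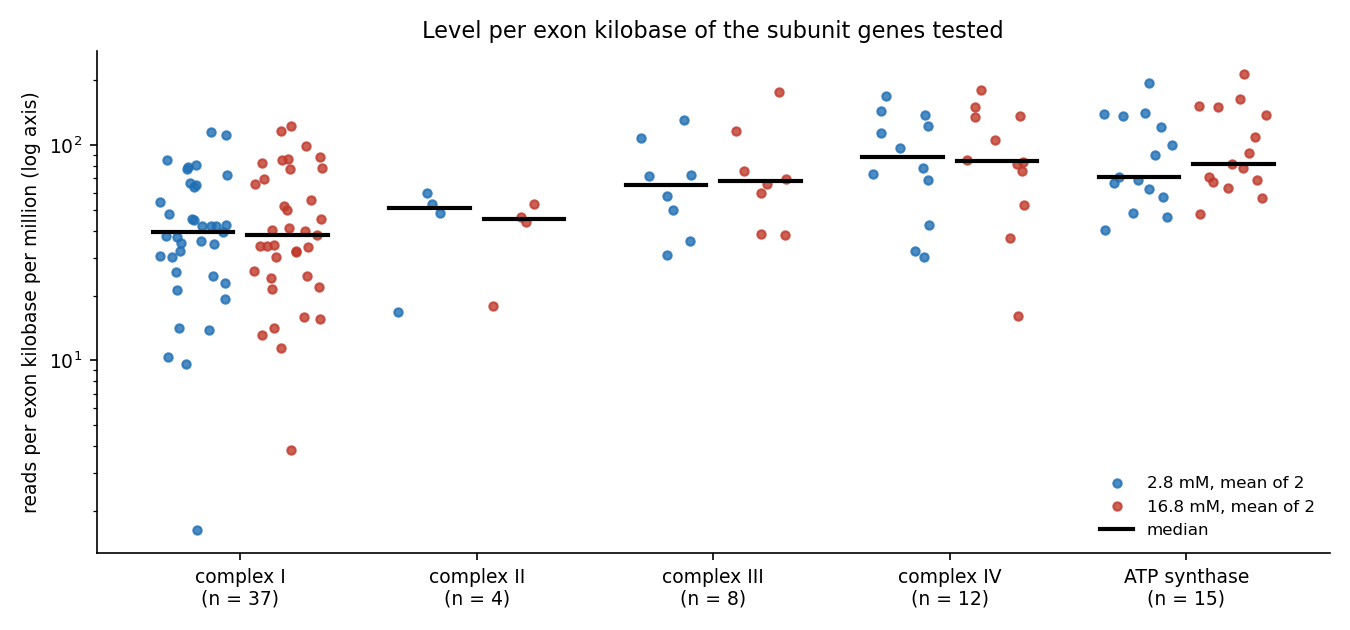
Level per exon kilobase, scaled to depth (vertical log axis), of the subunit genes tested in each complex, with a point per gene for the mean of the 2 libraries at 2.8 mM (blue) and at 16.8 mM (red) and a line at the median. The median was 39.5 and 38.3 for complex I, 50.8 and 45.1 for complex II, 64.9 and 68.0 for complex III, 87.6 and 84.4 for complex IV, and 71.4 and 81.6 for ATP synthase.

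Summed over its genes, each complex took a small share of the reads, without any exon length in the calculation. Complex II took 0.0357% and 0.0319% at 2.8 mM and 0.0313% and 0.0298% at 16.8 mM, so its groups did not overlap and the 16.8 mM libraries were lower. Complex III took 0.0511% and 0.0443% against 0.0541% and 0.0530%, and ATP synthase 0.166% and 0.147% against 0.176% and 0.168%, both without overlap and higher at 16.8 mM. The groups overlapped for complex I (0.165% and 0.146% against 0.165% and 0.158%) and for complex IV (0.0792% and 0.0694% against 0.0760% and 0.0721%). With 2 libraries against 2, an exact two-sided permutation test cannot give a p below 0.33, so these sums were described and not tested.

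Complex I showed calls in both directions. Of its 45 genes 40 were tested, 6 were called higher and 2 lower, beside 10.7% and 22.8% of all transcripts. The fold changes of complex I ran from -0.42 to 0.86 on the log2 scale. They were above 0 in 20 genes and below in 20, where 34.8% of all transcripts were above 0. The median was -0.01 on the deposited scale, and 0.07 with centring and 0.06 with quantile normalization, so its sign depended on the scaling. Centring gave 13 calls higher and 4 lower, beside 21.1% and 26.7% of all transcripts. *Ndufc2*, an accessory subunit of the membrane arm, measured 6.25 and 5.12 RPKM at 2.8 mM and 10.5 and 10.8 RPKM at 16.8 mM. It was 1.88-fold higher at 16.8 mM (log2 fold change 0.86, SE 0.13, adjusted p = 0.0033), the groups did not overlap, and the call held with any library left out. It lies on chr7:104548513-104556312 of NCBI build 37, on the forward strand, where the annotation also places the pseudogene *Gm16053*.

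*Ndufa4* and *Ndufa4l2* code for related proteins, the first of which has since been assigned to complex IV and the second of which is known as a gene induced in low oxygen. *Ndufa4* measured 5.92 and 4.83 RPKM at 2.8 mM and 7.88 and 8.27 RPKM at 16.8 mM, a rise of 0.55 on the log2 scale (SE 0.12, adjusted p = 0.016). *Ndufa4l2* measured 0.672 and 0.738 RPKM at 2.8 mM and 1.85 and 1.48 RPKM at 16.8 mM, a rise of 0.84 (SE 0.10, adjusted p = 0.0016). Both calls held without any single library. *Ndufa4l2* reached the minimum only through its 16.8 mM libraries, its lowest library held 85 reads by reconstruction, and it overlaps *Shmt2*, which measured 8.88 and 8.72 RPKM at 2.8 mM and 7.23 and 7.65 RPKM at 16.8 mM and was not called (adjusted p = 0.13). By exon level *Ndufa4l2* made up 1.79% and 2.39% of the pair at 2.8 mM and 3.63% and 2.80% at 16.8 mM.

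*Ndufs7*, a core subunit with an iron-sulphur cluster near the coenzyme Q site, measured 4.96 and 4.61 RPKM at 2.8 mM and 3.90 and 3.43 RPKM at 16.8 mM (log2 fold change -0.34, SE 0.11, adjusted p = 0.044). The groups did not overlap. The call was lost without either 2.8 mM library (0.18 and 0.051) or replicate 2 at 16.8 mM (0.24). Of other core subunits, *Ndufv1* and *Ndufs1*, which bind flavin and iron-sulphur clusters in the NADH-oxidising arm, had log2 fold changes of -0.16 (adjusted p = 0.31) and 0.01 (adjusted p = 0.91).

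*Ndufa1* and *Ndufa3*, accessory subunits, also passed and are named here after their values were seen. *Ndufa1* measured 8.10 and 6.78 RPKM at 2.8 mM and 10.5 and 9.73 RPKM at 16.8 mM (adjusted p = 0.041), and *Ndufa3* 5.64 and 4.91 RPKM against 6.98 and 6.86 RPKM (adjusted p = 0.042). Each call was lost when any library other than replicate 1 at 2.8 mM was left out, with adjusted p between 0.081 and 0.19. By name, 4 of 15 *Ndufa* genes were called, all higher, beside 10.7% of all transcripts called higher. The medians of the *Ndufa*, *Ndufb* and *Ndufs* genes were 0.01, 0.03 and 0.01. None of the 10 *Ndufb* genes was called by limma on the deposited scale, with 2 at an unadjusted p under 0.05, where 45.8% of all transcripts lay, and 2 called lower by voom on rebuilt reads, which called 29.5% of all its transcripts lower and 13.6% higher. Centring gave 4 *Ndufb* genes called higher and 2 lower, and quantile normalization 3 higher and 2 lower.

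Assembly factors act while a complex is built and are not part of the finished enzyme. Only 4 of the 9 were tested, none was called higher, 2 were called lower, and all 4 log2 fold changes were below 0 under the deposited, centred and quantile scales, with a median of -0.33 as deposited. Of all transcripts tested 22.8% were called lower, and 34.8% had a fold change above 0. *Ndufaf4*, an early assembly factor of complex I, measured 2.75 and 2.32 RPKM at 2.8 mM and 1.94 and 1.59 RPKM at 16.8 mM (log2 fold change -0.42, SE 0.11, adjusted p = 0.029), and the groups did not overlap. Its call was lost without replicate 1 at 2.8 mM (adjusted p = 0.11) or replicate 2 at 16.8 mM (0.10). *Ndufaf3*, which works with it, had a log2 fold change of -0.32 (adjusted p = 0.085) and *Ndufaf7* of -0.11 (adjusted p = 0.41). *Atp5sl* measured 2.19 and 2.24 RPKM at 2.8 mM and 1.71 and 1.59 RPKM at 16.8 mM (log2 fold change -0.34, SE 0.08, adjusted p = 0.021), a call lost without either 2.8 mM library (0.074 and 0.083) or replicate 2 at 16.8 mM (0.086). The others, *Ndufaf1*, *Ndufaf2*, *Ndufaf5*, *Ndufaf6* and *Atp5s*, stayed under 1 RPKM, as did the subunit *Ndufs4*. These were outside the limma fit but within that of voom on rebuilt reads, which called *Ndufaf2* (log2 fold change -0.48, adjusted p = 0.014), *Ndufaf6* (-0.51, adjusted p = 0.0092) and *Atp5s* (-0.51, adjusted p = 0.0040) lower and made no call for *Ndufaf1*, *Ndufaf5* or *Ndufs4*.

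**Figure D3:**
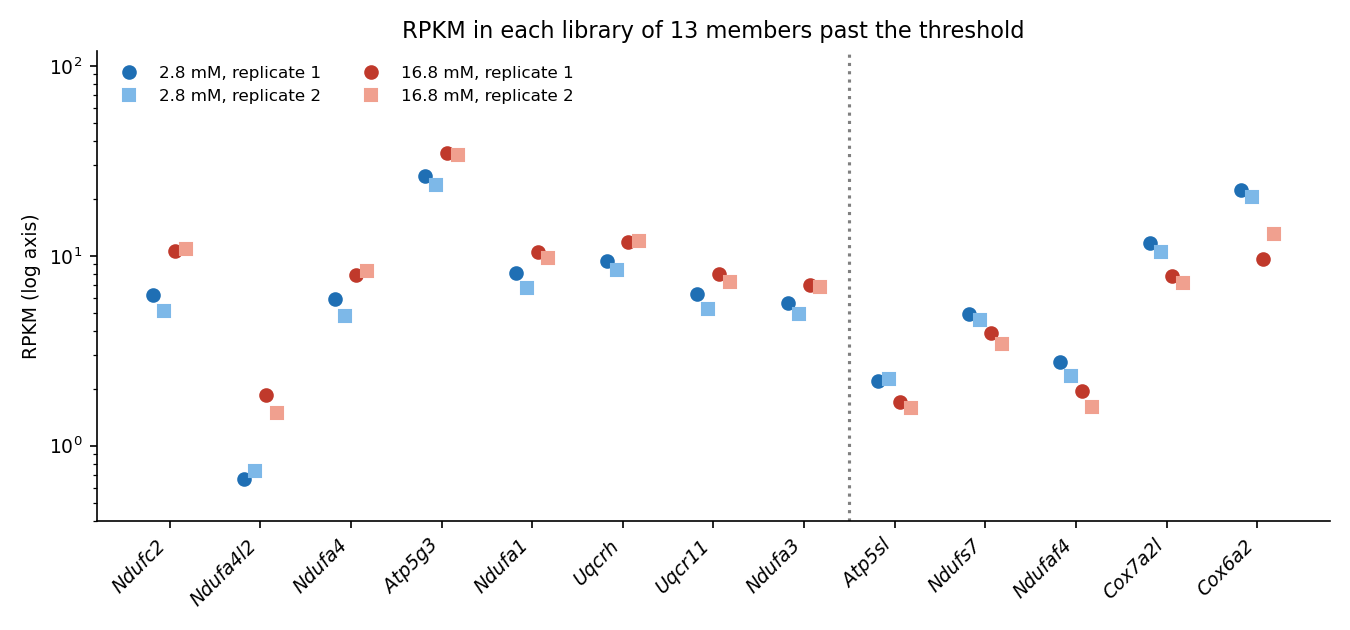
RPKM (vertical log axis) of 13 of the 14 called members in each library, with circles for replicate 1 and squares for replicate 2, blue at 2.8 mM and red at 16.8 mM, and a dotted line between 8 risers and the 5 genes that fell. In none of the 13 do the blue and red points overlap. Of all transcripts tested, 22.2% had both 16.8 mM libraries above and 48.3% had both below. The genes were picked by their calls, so the gaps are no separate support. The widest gaps are those of *Ndufc2* and *Ndufa4l2* among the risers and of *Cox6a2* among the genes that fell. *Ndufa4l2* reached the minimum of 1 RPKM only through its 16.8 mM libraries.

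Complex II had no call with limma, while 2 of its 4 genes were at an unadjusted p under 0.05, where 45.8% of all transcripts lay. Both were called lower by voom on rebuilt reads and under centring and quantile normalization. Those fits called 29.5%, 26.7% and 27.4% of all their transcripts lower. The 2 genes were the catalytic subunits. *Sdha*, the flavoprotein, measured 5.66 and 5.37 RPKM at 2.8 mM and 4.59 and 4.49 RPKM at 16.8 mM (log2 fold change -0.26, SE 0.10, adjusted p = 0.083). *Sdhb*, the iron-sulphur subunit, measured 4.13 and 3.45 RPKM against 3.01 and 2.88 RPKM (log2 fold change -0.31, SE 0.11, adjusted p = 0.063). In both genes the 16.8 mM libraries lay below the 2.8 mM libraries, as in 48.3% of all transcripts tested. The membrane anchors *Sdhc* and *Sdhd* had log2 fold changes of 0.08 and 0.13 (adjusted p = 0.56 and 0.47), and their groups overlapped.

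All 8 *Uqcr* genes taken for complex III were tested, 2 were called higher and none lower, and 7 of the fold changes were above 0. Of all transcripts tested 10.7% were called higher, 22.8% were called lower and 34.8% had a fold change above 0. *Uqcrh*, the hinge protein next to cytochrome c1, measured 9.34 and 8.37 RPKM at 2.8 mM and 11.8 and 11.9 RPKM at 16.8 mM (log2 fold change 0.41, SE 0.11, adjusted p = 0.033). The annotation places a pseudogene, *Gm12854*, within its span. *Uqcr11*, a small accessory subunit, measured 6.27 and 5.27 RPKM against 8.06 and 7.31 RPKM (log2 fold change 0.39, SE 0.12, adjusted p = 0.048). Neither gene's groups overlapped. Both calls were lost when any library other than replicate 1 at 2.8 mM was left out, with adjusted p of 0.11, 0.11 and 0.14 for *Uqcrh* and 0.19, 0.17 and 0.072 for *Uqcr11*. Of the core subunits, the Rieske iron-sulphur protein *Uqcrfs1* had a log2 fold change of 0.30 (adjusted p = 0.085), and the core proteins *Uqcrc1* and *Uqcrc2* had 0.08 (adjusted p = 0.59) and 0.05 (adjusted p = 0.73).

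Complex IV, as taken by gene name, carried both of the steepest falls among the members. Of 18 genes 12 were tested, none was called higher by limma on the deposited scale and 2 were called lower. Counting *Ndufa4* with this complex, 1 of 13 was called higher. Centring and quantile normalization each called 4 of the 12 higher, among them *Cox7b* and *Cox6b1* (adjusted p = 0.0091 and 0.015 with centring), and 2 lower. At an unadjusted p under 0.05 there were 3, where 45.8% of all transcripts lay, and voom on rebuilt reads called 2 of the 12 higher. Of all transcripts, limma on the deposited scale called 22.8% lower. Centring, quantile normalization and voom called 21.1%, 20% and 13.6% of all their transcripts higher. *Cox6a2*, the isoform of subunit VIa known from heart and skeletal muscle, measured 22.1 and 20.5 RPKM at 2.8 mM and 9.66 and 13.0 RPKM at 16.8 mM. It was 1.88-fold lower at 16.8 mM (log2 fold change -0.89, SE 0.16, adjusted p = 0.0068), and the call held with any library left out, although the 2 libraries at 16.8 mM differed more from each other than those at 2.8 mM. The gene lies on chr7:135348950-135349880 of NCBI build 37, on the reverse strand, and overlaps *Itgad*, which measured at most 0.101 RPKM. Summed over 4 muscle markers (*Myh6*, *Actn2*, *Tnnt3* and *Ckm*) the deposited level was between 0.208 and 0.287 RPKM in each library. These values are over the genomic span, so they cannot be set against the level of *Cox6a2*. The cells that its reads came from were not tested.

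*Cox7a2l*, counted with complex IV and the *Cox7a* group by its name alone, measured 11.6 and 10.4 RPKM at 2.8 mM and 7.82 and 7.18 RPKM at 16.8 mM. It was 1.47-fold lower (log2 fold change -0.53, SE 0.12, adjusted p = 0.015), the groups did not overlap, and the call was lost only without replicate 2 at 16.8 mM (adjusted p = 0.086). The other genes of the complex tested were not called on the deposited scale. The log2 fold changes of *Cox4i1*, *Cox5a* and *Cox5b*, which sit close to the catalytic core, were -0.03 (adjusted p = 0.88), 0.17 (adjusted p = 0.16) and 0.07 (adjusted p = 0.70), and the range over the 10 genes that were not called ran up to 0.29.

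Several subunits of complex IV and of ATP synthase have isoform genes, whose shares do not depend on how a library is scaled. Within the *Cox6a* pair *Cox6a2* made up 16.8% and 17.9% of the level per exon kilobase at 2.8 mM and 8.26% and 11.0% at 16.8 mM, a mean of 17.3% ± 0.789 (SD, n = 2) against 9.64% ± 1.95. *Cox6a1*, the form found in most tissues, had a log2 fold change of 0.06 (adjusted p = 0.73). Within the *Cox7a* group, formed by gene name, *Cox7a2l* went from 63.1% and 64.2% to 51.9% and 51.4%. *Cox7a2*, the form found in most tissues, went from 36.3% and 35.2% to 45.9% and 47.4%. As a single gene *Cox7a2* had a log2 fold change of 0.13 (limma adjusted p = 0.46), and its RPKM values overlapped between the groups. In each of these shares the 16.8 mM libraries did not overlap the 2.8 mM libraries. Those of *Cox6a2* and *Cox7a2l* use the same measurements as their calls and are no separate test. The share of a gene also rises where that of another in its group falls.

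The muscle isoform *Cox7a1* stayed near the bottom of the range, at 0.258 and 0.217 RPKM at 2.8 mM and 0.709 and 0.371 RPKM at 16.8 mM. It was below the minimum for limma, while voom on its rebuilt reads (28 and 21 against 80 and 35) called it higher (log2 fold change 1.12, adjusted p = 0.016). Low levels were also measured for *Cox4i2*, the form used in lung, which made up at most 0.992% of the *Cox4i* pair, for *Cox6b2* (at most 0.205% of its pair), for *Cox7b2* (at most 1.06%) and for *Cox8b* and *Cox8c* (at most 0.136% and 0.0397%). For these 6 genes the deposited level was under 1 RPKM in every library.

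ATP synthase had the highest median fold change of the complexes, 0.18 as deposited, 0.26 with centring and 0.22 with quantile normalization. Leaving out *Atp5s* and *Atp5sl*, it was 0.21 over 15 *Atp5* subunits. Of these, 13 were above 0, 10 had both 16.8 mM libraries above both 2.8 mM libraries, and 1 was called, against 8 with centring. The shares of all transcripts were 34.8% above 0, 22.2% with both libraries above, and 10.7% called higher, against 21.1% with centring. On the deposited scale the 1 call was *Atp5g3*, an isoform gene of subunit c in the proton-driven ring. It measured 26.2 and 23.4 RPKM at 2.8 mM and 34.9 and 33.8 RPKM at 16.8 mM (log2 fold change 0.46, SE 0.13, adjusted p = 0.031). The call was lost without replicate 2 at 2.8 mM (adjusted p = 0.061) and without either 16.8 mM library (0.15 and 0.14). The catalytic head, F1, had a median of 0.14 over 5 genes, and *Atp5a1*, *Atp5b* and *Atp5c1* had log2 fold changes of 0.12 (adjusted p = 0.51), 0.14 (adjusted p = 0.43) and 0.03 (adjusted p = 0.87). The membrane part and the stalk had a median of 0.23 over 10 genes.

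The 3 *Atp5g* genes code for the same mature ring protein and differ in the leader peptide that is removed on import. *Atp5g3* took 34.7% and 35.8% of their summed exon level at 2.8 mM and 41.9% and 43.0% at 16.8 mM, while *Atp5g2* went from 42.3% and 43.3% to 34.4% and 32.7%. Neither share overlapped between the groups, and *Atp5g3* passed from the second to the first place. *Atp5g1* had 23.0% and 20.9% at 2.8 mM and 23.7% and 24.3% at 16.8 mM. As single genes *Atp5g2* had a log2 fold change of -0.14 (adjusted p = 0.39) and *Atp5g1* of 0.33 (adjusted p = 0.12).

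**Figure D4:**
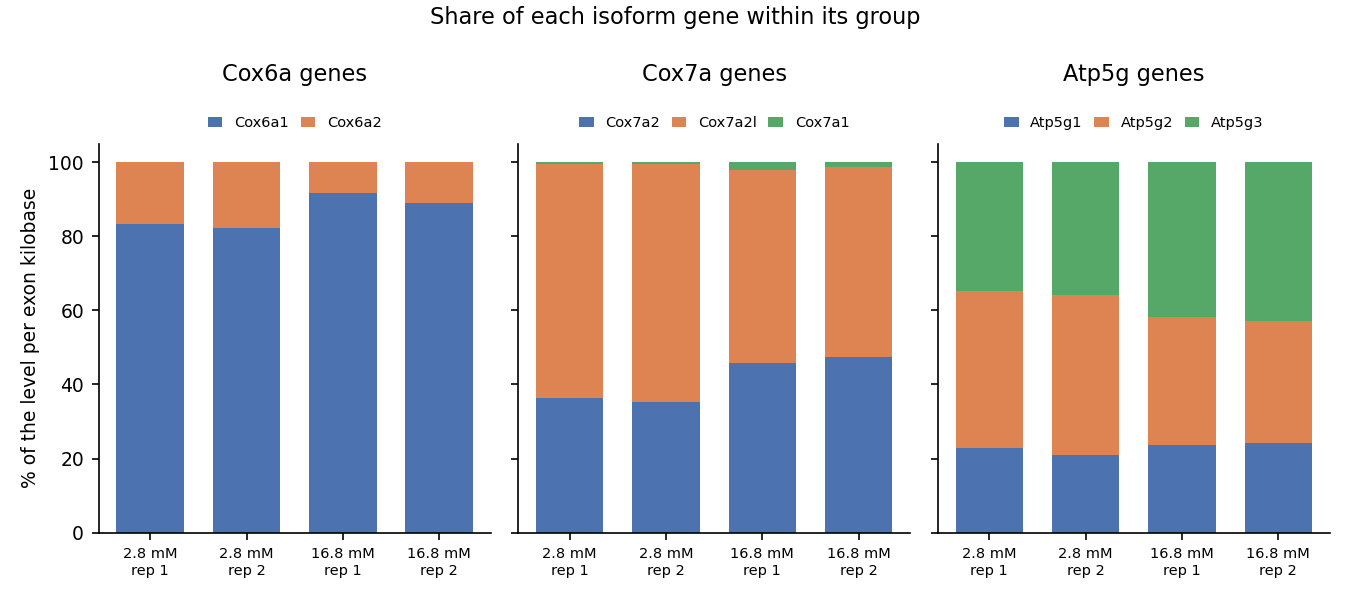
Share of each isoform gene in the summed level per exon kilobase of its group (vertical axis, %), with a stacked bar per library for the *Cox6a*, *Cox7a* and *Atp5g* genes. *Cox6a2* is between 16.8% and 17.9% at 2.8 mM and between 8.26% and 11.0% at 16.8 mM, *Cox7a2l* drops from above 63% to below 52%, and *Atp5g3* grows from below 36% to above 41%.

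Start sites were compared for motifs known from nuclear respiratory genes, in the windows of RefSeq promoters of GRCm38.p6 from 250 bases before to 50 bases after a start. A window was found for 73 of the 92 members, with 78 windows in all. The NRF1 motif (GCGCA, any base, GCGC) occurred on either strand in 20 windows (25.6%), beside 4.60% of all 32851 windows and 12.2% of the windows of genes that averaged 1 RPKM or more. The ETS motif CCGGAAG occurred in 21.8% against 8.86% and 20.8%, the YY1 motif AAGATGG in 12.8% against 6.34% and 8.08%, and CCAAT in 42.3% against 37.4% and 38.1%. Among the called members with a window, NRF1 matches occurred in 1 of 7 windows of risers and in 1 of 3 of genes that fell, beside 17 of 60 windows of members that were not called.

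Sequences are printed 5′ to 3′ on the gene's strand, with capitals for matches to those motifs on either strand. The 170 bases before the start are given for 5 of the members named above, including *Cox6a1* and *Atp5g2*, which were not called. These are *Cox6a1* (chr5:115348959-115349128, reverse strand), *Atp5g2* (chr15:102671048-102671217, reverse), *Uqcrh* (chr4:116075071-116075240, reverse), *Ndufc2* (chr7:97399833-97400002, forward) and *Cox7a2l* (chr17:83514334-83514503, reverse), all in GRCm38.p6. *Cox6a1* holds 2 NRF1 matches, 1 CCAAT and 1 ETS match, *Atp5g2* 1 NRF1 match, *Uqcrh* 1 CCAAT and 1 ETS match, *Ndufc2* 1 CCAAT, and *Cox7a2l* none of the 4 motifs.
*Cox6a1*: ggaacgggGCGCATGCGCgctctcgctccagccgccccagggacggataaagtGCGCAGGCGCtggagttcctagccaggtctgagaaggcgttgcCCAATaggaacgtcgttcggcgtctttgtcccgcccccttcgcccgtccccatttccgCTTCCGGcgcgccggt
*Atp5g2*: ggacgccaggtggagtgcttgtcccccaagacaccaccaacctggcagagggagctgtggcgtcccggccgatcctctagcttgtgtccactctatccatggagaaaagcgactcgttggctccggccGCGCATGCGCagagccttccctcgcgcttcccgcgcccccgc
*Uqcrh*: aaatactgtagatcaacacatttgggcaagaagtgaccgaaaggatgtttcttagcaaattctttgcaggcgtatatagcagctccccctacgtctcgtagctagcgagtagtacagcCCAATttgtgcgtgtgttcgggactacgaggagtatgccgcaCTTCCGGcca
*Ndufc2*: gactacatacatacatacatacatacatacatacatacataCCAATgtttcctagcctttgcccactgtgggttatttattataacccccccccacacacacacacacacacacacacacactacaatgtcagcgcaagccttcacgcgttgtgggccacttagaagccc
*Cox7a2l*: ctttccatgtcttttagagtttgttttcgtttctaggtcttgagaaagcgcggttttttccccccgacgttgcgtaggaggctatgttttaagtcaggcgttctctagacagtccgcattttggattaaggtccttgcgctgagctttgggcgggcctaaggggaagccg

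Genes around the complexes were taken from 4 lists of 94 genes in all, of which 90 were in the table and 52 were tested, with 4 called higher (7.69%) and 11 lower (21.2%), beside 10.7% and 22.8% of all transcripts tested. Among 22 tested assembly factors of complex IV and the other complexes 1 was called higher and 4 lower. *Sdhaf1*, which protects the iron-sulphur subunit of complex II during assembly, fell from 20.5 and 17.4 RPKM to 10.7 and 9.92 RPKM (log2 fold change -0.84, SE 0.13, adjusted p = 0.0041). *Uqcc2*, a factor for complex III, fell by 0.53 (adjusted p = 0.011, but 0.055 without replicate 2 at 16.8 mM), and *Pet100*, a factor for complex IV, rose by 0.29 (adjusted p = 0.049, and between 0.082 and 0.31 without any 1 library). Of 8 tested genes of electron carriers and coenzyme Q synthesis only *Coq5*, a methyltransferase of that pathway, was called, and it fell by 0.38 (adjusted p = 0.012). Cytochrome c, *Cycs*, had a log2 fold change of 0.31 (adjusted p = 0.11).

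Of 10 tested regulators 3 were called, all lower, a share of 30% that lies near the 22.8% of all transcripts called lower. *Peo1*, the mitochondrial DNA helicase, fell from 2.15 and 2.04 RPKM to 1.30 and 1.14 RPKM (log2 fold change -0.59, adjusted p = 0.0033). *Tfam*, which packages and transcribes mitochondrial DNA, fell by 0.32 (adjusted p = 0.033, but 0.20 without replicate 1 at 2.8 mM and 0.12 without replicate 2 at 16.8 mM). Carriers, inhibitor and uncoupling proteins gave 3 calls in each direction among 12 tested. *Ucp2*, the uncoupling protein of the inner membrane found in beta cells, rose from 8.28 and 7.11 RPKM to 12.8 and 12.2 RPKM (log2 fold change 0.67, adjusted p = 0.0072), and *Higd1a*, which binds complex IV, rose by 0.76 (adjusted p = 0.0047). The outer membrane channels *Vdac1* and *Vdac3* fell by 0.79 (adjusted p = 0.0033) and 0.64 (adjusted p = 0.0041). The calls for *Ucp2*, *Higd1a*, *Vdac1*, *Vdac3*, *Peo1*, *Sdhaf1* and *Coq5* held with any library left out. Those fits reuse the remaining libraries and are no separate test.

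The median log2 fold change of the members, 0.08, was set beside that of other gene groups. It was -0.29 for 75 cytosolic ribosomal proteins (0 called higher and 8 lower by limma, 26 at an unadjusted p under 0.05, and 42 lower by voom) and -0.18 for 61 mitochondrial ribosomal proteins (1 higher, 15 lower). Over 17 subunits of the 20S proteasome it was 0.08 (2 higher, none lower), and over 11 genes of the citric acid cycle -0.02, with a single call. That call was *Fh1*, fumarate hydratase, which measured 2.14 and 1.95 RPKM at 2.8 mM and 9.40 and 9.72 RPKM at 16.8 mM (log2 fold change 1.98, SE 0.10, adjusted p = 6.2e-05). The difference between the members and these lists was not tested.

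**Figure D5:**
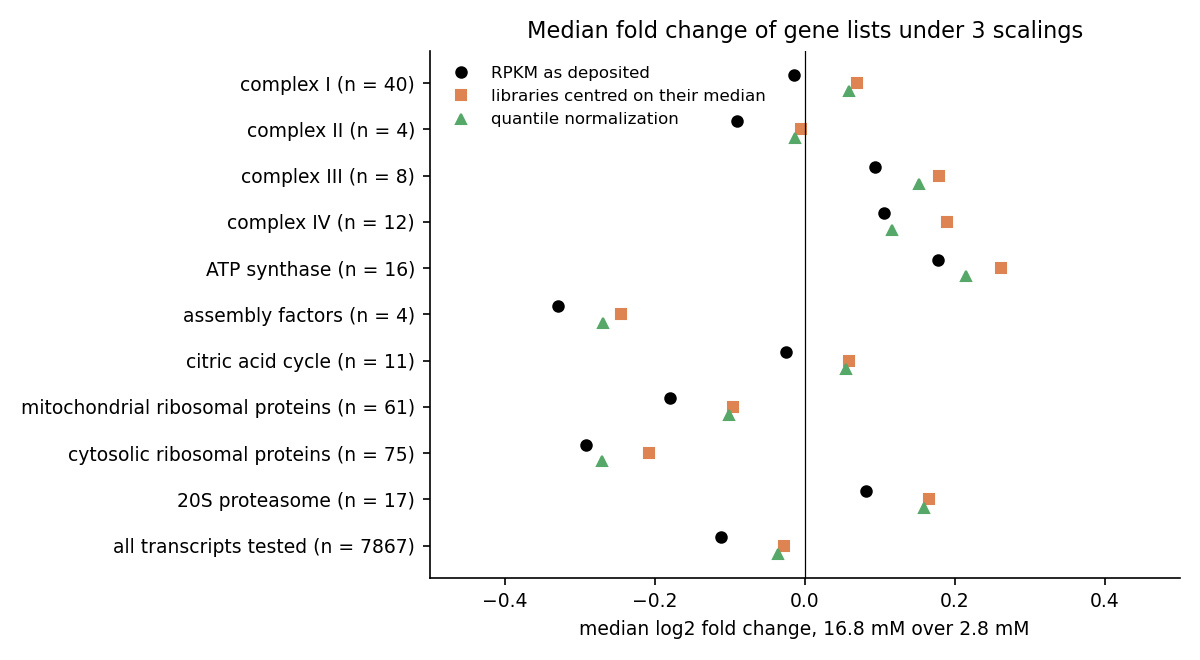
Median log2 fold change (16.8 mM over 2.8 mM, horizontal axis) of each complex and of other gene lists, with a point for each of 3 scalings of the libraries. Centring moves every list up by 0.08, and on each scale complexes III and IV and ATP synthase are above 0 and both lists of ribosomal proteins below it, while complex I is at -0.01 as deposited and above 0 on the other scales.

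Across the 80 tested members the log2 fold change had a Spearman rho of 0.25 with the level per exon kilobase, of -0.25 with exon length and of -0.23 with genomic span. Over 7222 tested transcripts with a known length the latter values were -0.05 and -0.03. These are descriptions over genes that share the same 4 libraries.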

How the data were processed

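RNA-seq of whole mouse islets was measured in 2 libraries at 2.8 mM and 2 at 16.8 mM glucose, grouped by the labels. RPKM values per RefSeq transcript were deposited by the authors in 1 table. Per the labels, STAR, bedtools and DESeq were used with the mm9 genome (NCBI build 37), with no versions given, and the strand setting and the handling of reads with several matches are not given in the sources used here. Reads of neighbouring, overlapping or antisense genes, intronic RNAs and pseudogene copies may therefore be shared, and 24 of the 92 members overlap another annotated gene.

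Of the 33923 entries 28047 were distinct after identical entries of the same gene were merged. RPKM was taken to log2(RPKM + 0.5), transcripts under a mean of 1 RPKM were left out, and limma 3.58.1 in R 4.3.3 was fitted with a variance trend and Benjamini-Hochberg adjustment over all 7867 transcripts. Depth came from the steps between low values of short single-exon RNAs, of which between 97.2% and 99.3% were whole reads within a tolerance of 0.02, and reads were rebuilt from RPKM, span and depth. Coordinates and exon lengths came from GENCODE vM1 on NCBI build 37, promoters from RefSeq on GRCm38.p6. On simulated data with 200 of 7867 transcripts changed, 81% of log2 changes of 1 and 97% of log2 changes of 2 were called. Of the calls 3.26% were false, and 0 transcripts were called when none was changed. The simulated noise was independent between libraries, with SDs shuffled among transcripts, so shifts shared by a whole library were absent. The members tested ran from -0.89 to 0.86, and changes of that size were not simulated, so these rates do not cover them. Figures were drawn by matplotlib 3.10.9, and tables by Python 3.11.15 using scipy 1.17.1, numpy 2.4.6 and pandas 2.3.3.

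Named genes were the 3 largest rises and falls called per complex, core subunits, isoform groups, assembly factors, *Txnip* and *Pklr*, and the 2 largest changes called in each direction per list of other genes. Of the members, 1 is counted but not reported by name here. The members and lists were chosen with earlier results of these data known. The alternatives were other filters, added constants, scalings, the replicate block, voom, other handling of entries and overlaps, and each library left out. Lengths and identities of the proteins were not analysed here. The precision is limited by the 2 libraries per group.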

Additional observations from a re-analysis of the deposited data

How the results depend on the processing

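The lowest library of a tested member held 85 reads, and 4 of the 92 members had too few reads for voom. The cause of each shift was not tested. Lower and higher calls among the members numbered 1 and 0 with no filter on low values, and 2 and 9 with a minimum mean of 5 RPKM. They were 10 and 27 with quantile normalization, 9 and 29 with median centring, and 14 and 20 with voom on rebuilt reads. Without transcripts that overlap another gene they were 9 and 12. Called either way were 1.09% of members and 9.13% of all transcripts with no filter, and 22% and 33.5% with the minimum of 5 RPKM. With quantile normalization it was 46.25% and 47.4%, with centring 47.5% and 47.9%, and with voom 38.6% and 43.2%. Without overlapping transcripts it was 37.5% and 48.1%. With 1 RPKM in every library 39.6% of all transcripts were called, with 0.1 RPKM added 33.0%, and with a single entry per gene 32.3%. Calls in complex I were then 1 with no filter, 5 with the higher minimum, 17 with quantile normalization, 17 with centring and 16 with voom. Calls in complex II were 1 with at least 1 RPKM in every library, 2 with quantile normalization, 2 with centring, 2 with voom and 1 without overlapping transcripts. Calls in complex III were 0 with no filter, 1 with 0.1 RPKM added, 1 with a single entry per gene, 4 with quantile normalization and 4 with centring. Calls in complex IV were 0 with no filter, 6 with quantile normalization, 6 with centring and 5 with voom. Calls in ATP synthase were 0 with no filter, 8 with quantile normalization, 9 with centring, 8 with voom and 5 without overlapping transcripts. Calls among the other respiratory chain genes were 4 with the higher minimum, 23 with quantile normalization, 23 with centring and 36 with voom. Calls over the whole table were 2628, 740 with the higher minimum and 7915 with voom, which tested 18338 transcripts.

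The median log2 fold change of complex I was -0.01, and it was 0.11 with the higher minimum, 0.0593 with quantile normalization and 0.0694 with centring. That of complex II was -0.09, and it was -0.0055 with centring and 0.0765 without overlapping transcripts. That of complex III was 0.09, and it was 0.21 with the higher minimum.

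Leaving out each library in turn, where a lone library was assumed to vary like the other group, gave between 1 and 6 lower and between 3 and 12 higher calls among the members. The calls ranged from 3 to 7 in complex I, 0 to 1 in complex II, 0 to 2 in complex III, 1 to 2 in complex IV, 0 to 3 in ATP synthase, 9 to 16 among the other respiratory chain genes and 1825 to 2579 over the whole table. The medians ranged from -0.012 to 0.17 for the members, -0.0878 to 0.0788 for complex I, -0.15 to -0.02 for complex II, -0.0021 to 0.22 for complex III, -0.0216 to 0.20 for complex IV and 0.07 to 0.27 for ATP synthase. *Ndufc2*, *Ndufa4*, *Ndufa4l2* and *Cox6a2* were called in all 4 of these fits.

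With the replicate number as a block, 11 members were called lower and 20 higher, with 14 calls in complex I, 2 in complex II, 6 in complex IV and 6 in ATP synthase, 25 among the other genes and 4067 over the whole table. The samples share only a number, and with 2 numbers the deviations of same-numbered libraries correlated with r = 0.31. The planned comparison of isoform proteins was not run.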
